A study of Mus musculus with 3 samples.

Results

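The mural cells of skin vessels, pericytes and vascular smooth muscle, were picked out of single-cell RNA sequencing libraries of mouse dorsal skin by the transcripts they carried. Each cell had at least 1 unique molecular identifier (UMI, 1 counted RNA molecule) of at least 3 of the genes Rgs5, Notch3, Myh11, Kcnj8 and Pdgfrb, with Rgs5 or Myh11 among them, and no UMI of Ptprc (leukocytes), Pdgfra (fibroblasts) or Cdh5 (endothelium). 513 of the 33511 cells kept after quality control met this rule. There were 174 of 12039 in the control library (CON), 215 of 11331 after ultraviolet irradiation (UV) and 124 of 10141 after irradiation with ruxolitinib (Rux). The study asked how chronic ultraviolet light ages skin and what blocking JAK signalling does to it. All groups were wild-type C57BL/6J mice, described as female and as 8 weeks old. The paper gives this age with their purchase. Skin was taken after the final exposure, so the sampled mice were older. CON skin received vehicle and no irradiation. UV skin received vehicle and, on alternate days over 12 weeks, mixed light with a UVA irradiance of 0.6 mW/cm2 and a UVB irradiance of 3.5 mW/cm2. Rux skin received the same irradiation followed at once by an ointment of 1.5% ruxolitinib, an inhibitor of the kinases JAK1 and JAK2. Full-thickness skin was dissociated, and the number of mice behind a library is not given in the sources used here. Each condition is 1 library, so no difference between conditions has a replicate check and no test was made. The 95% intervals below are exact and cover counting error only.

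Pericytes sit within the basement membrane of capillaries and venules, where they contact the endothelium, sense its PDGF and Notch ligands and help to set capillary tone. Vascular smooth muscle cells wrap arterioles and larger veins and contract through an actin and smooth muscle myosin apparatus that calcium and nitric oxide signals control. Both deposit basement membrane collagens, and both can release chemokines and interleukin 6 when cytokines act on them through JAK kinases and STAT factors.

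The rule genes were read as a description, since they chose the cells. 187 cells carried 3 of the 5 rule genes, 256 carried 4 and 70 carried all 5. Just inside the threshold, cells with 3 rule genes held Rgs5 at 339, 580 and 338 counts per 1e+06 UMIs (CPM) in CON, UV and Rux. The 271 cells just outside, with 2 rule genes, held Rgs5 at 50.04, 52.57 and 16.52 CPM. Acta2, the smooth muscle actin and a marker the rule did not use, stood at 3259, 3101 and 1949 CPM inside and at 781, 395 and 599 CPM outside. A further 458 cells met the positive part of the rule and were left out for an exclusion gene, 359 of them for Cdh5. The excluded cells held the endothelial gene Pecam1 at 461, 676 and 572 CPM beside Rgs5 at 1446, 2014 and 1738 CPM. The endothelial gene Pecam1 was at 8.21, 33.4 and 5.82 CPM in the mural cells.

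Other cell types left traces that bear on every summed value. Clustering of the mural cells gave 9 subclusters, and subcluster 6, with 38 cells, was keratinocyte-like by the keratin marker list, with Dsc3 (a desmosomal cadherin) and Trp63 (p63, a factor of the basal epidermis) among its 10 leading genes and none of the listed keratins. Its cells had a median of 37580 UMIs and gave 36.5% of all mural UMIs in CON, 35.0% in UV and 33.4% in Rux. Subcluster 8, with 10 cells, was fibroblast-like by the fibroblast marker list, with Cd34, Clec3b and Fbln2 among its 10 leading genes and none of the listed markers. Values are therefore given over all 513 cells and, where it matters, over the 465 cells without these 48, a set chosen after their values were seen. The 6 keratinocyte markers summed to 3518, 1585 and 1816 CPM over all mural cells and to 425, 165 and 184 CPM over the 465. A single UV cell gave nearly all haemoglobin UMIs of its library and a single CON cell nearly all melanocyte UMIs. The 7 fibroblast markers summed to 3281, 2004 and 2948 CPM over all mural cells and to 2175, 2315 and 3336 CPM over the 465. Their most abundant gene was Col1a1 in CON and Col3a1 in UV and Rux over all mural cells, and Pdgfra, an exclusion gene, was at 0. The 6 endothelial markers summed to 97.9, 200 and 150 CPM over all mural cells and to 149, 279 and 226 CPM over the 465, mostly Flt1, with the exclusion gene Cdh5 at 0 and Kdr at 0 in Rux. The 6 leukocyte markers summed to 3.16, 3.98 and 6.46 CPM. A doublet caller (Scrublet) set to the expected loading rate marked 3010 kept cells, 45 of them mural and 16 of those in subcluster 6. These stayed in the main values and were removed in an alternative.

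The libraries also went against one of their descriptions. Kept cells of all libraries held the Y-linked gene Ddx3y at 110, 116 and 122 CPM and Xist, made by the inactive X chromosome, at 0.117, 0.106 and 0.101 CPM, although the mice were described as female. The mural cells alone held 314, 305 and 219 UMIs of Ddx3y and none of Xist. CON and UV shared 50 cell barcodes, UV and Rux 40, and CON and Rux 28, and 3 mural cells carried a shared barcode. The median mural cell held 6080 UMIs in CON, 6081 in UV and 8067 in Rux. Summed over mural cells the libraries held 1583745, 2008959 and 1546970 UMIs.

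Mural cells were a larger share of the UV library than of the others. They made up 1.45% of kept cells in CON (1.24 to 1.68), 1.90% in UV (1.65 to 2.17) and 1.22% in Rux (1.02 to 1.46). The UV share was 1.31-fold that of CON, and the Rux share was 0.644-fold that of UV. With every cell thinned to 2000 UMIs the shares were 1.03%, 1.59% and 0.970%. Endothelial cells moved in the same order, at 4.21%, 5.83% and 2.26% of kept cells. Per 100 blood endothelial cells there were 34.3 mural cells in CON (28.7 to 40.9), 32.5 in UV (27.8 to 38.0) and 54.2 in Rux (43.2 to 67.7). Set against endothelium, the Rux library therefore held the most mural cells, and the CON and UV intervals overlapped. Of cells positive by the rule genes, Cdh5 removed 94 of 300 in CON, 197 of 450 in UV and 68 of 221 in Rux. Endothelial cells were required to carry Cdh5, so the removed cells could count among them. Their part in the shares and ratios was not tested. The UV to CON difference in share depended on the quality filter: under a stricter one, a minimum of 500 genes per cell and no more than 5% mitochondrial UMIs, its log2 value was 0.03 in place of 0.39.

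**Figure D1:**
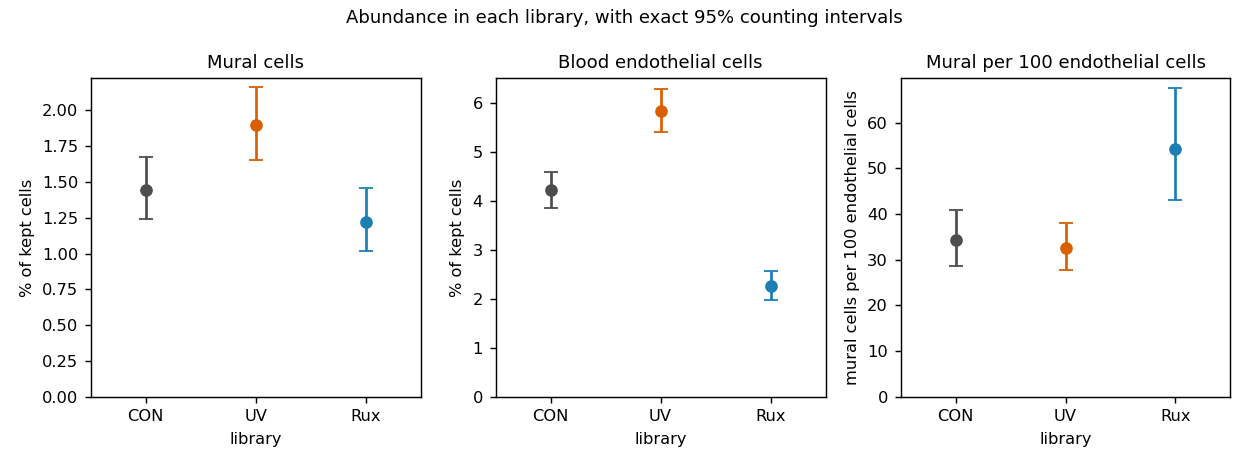
Abundance of mural cells in the CON, UV and Rux libraries, as percent of kept cells, beside blood endothelial cells as percent of kept cells and mural cells per 100 blood endothelial cells. Points are libraries and bars are exact 95% counting intervals. Mural cells were 1.45%, 1.90% and 1.22% of kept cells and 34.3, 32.5 and 54.2 per 100 endothelial cells.

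The mural cells ranged from a contractile to a capillary form, seen most simply with Myh11, the smooth muscle myosin heavy chain, and Kcnj8, the pore of a pericyte potassium channel. Cells with Myh11 and without Kcnj8 were 78.7% of mural cells in CON (71.9 to 84.6), 71.2% in UV (64.6 to 77.1) and 69.4% in Rux (60.4 to 77.3). Cells carrying both were 12.6%, 22.3% and 21.0%. Their median depths were 6133 and 5898 UMIs in CON, 6337 and 5794 in UV and 8247 and 8131 in Rux. Cells with Kcnj8 and without Myh11, 7 or 8 in each library, were shallower, at 4444, 3106 and 4362 UMIs. Kcnj8 was also found in 0.803%, 0.840% and 0.431% of keratinocytes, which should lack it, at median depths of 15354, 19212 and 19414 UMIs. With cells thinned to 2000 UMIs, those with both genes were 2.91%, 11.0% and 7.56%, again lowest in CON. Both genes chose the cells, so these shares are a description of single libraries.

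Kcnj8-positive mural cells, with or without Myh11, held more of some pericyte genes and not of others. Abcc9, the regulatory subunit of the same channel, was at 591 CPM in Kcnj8-positive cells and 62.5 CPM in cells with Myh11 alone. The log2 difference was 2.34 within CON, 3.51 within UV and 3.40 within Rux. The mitochondrial gene Higd1b followed at 348 and 48.3 CPM, and Steap4, a metalloreductase, at 208 and 32.7 CPM. Rgs5, a brake on G protein signalling, was at 4755 and 1656 CPM. Contractile genes ran the other way. Tagln (transgelin) was at 864 CPM in Kcnj8-positive cells and 2961 CPM in cells with Myh11 alone. Acta2 was at 1370 and 3412 CPM, and Crispld2, a secreted protein, at 337 and 1286 CPM. These 7 genes kept their direction in each library. For Abcc9, Higd1b, Steap4 and Crispld2 this was a condition of being named, so it is no finding. Not all other pericyte genes kept theirs. Cspg4, the NG2 proteoglycan, was at 72.2 and 77.5 CPM, higher in Kcnj8-positive cells in UV alone. Cox4i2 was at 351 and 52.5 CPM over all libraries, but its log2 difference was 0.18 within CON against 2.93 within UV and 3.38 within Rux. Within CON the log2 differences of the rule genes Pdgfrb and Notch3 were -0.34 and -0.69, and both were above 0 in UV and Rux. The gates used 2 rule genes, so these are descriptions without a test.

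Subclusters 5 and 7, with 84 cells, were pericyte-like by the marker lists, and subclusters 1, 2 and 4, with 217 cells, were vascular smooth muscle-like. Rgs5 was at 5948 and 8348 CPM in the pericyte-like subclusters, and Abcc9 at 1135 and 858 CPM. Acta2 was at 6900, 3316 and 7224 CPM in the smooth muscle-like ones. Subcluster 4 was smooth muscle-like with little Rgs5, at 325 CPM. Subcluster 0, with 99 cells, had Sele, Ccl19, Ccl11 and Cxcl5 as its 4 leading genes and received no name. Its highest marker score was for fibroblasts (0.20, against 0.12 for smooth muscle and -0.04 for pericytes), and it stayed among the 465 cells. Subcluster 3, with 65 cells, was led by Tmem119, Aldh1a1 and Prex2 and received none either. A name needed a mean marker score of at least 0.25 above the average subcluster (natural log scale) and at least 0.25 above that of the next list, limits set with the data in view. Subcluster 3 scored 0.36 for smooth muscle and 0.19 for fibroblast markers, and its Acta2, at 3715 CPM, was above that of subcluster 2. It held 15 CON, 32 UV and 18 Rux cells. These genes built the subclusters and are no finding, and subcluster sizes are no measure of a change between libraries.

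**Figure D2:**
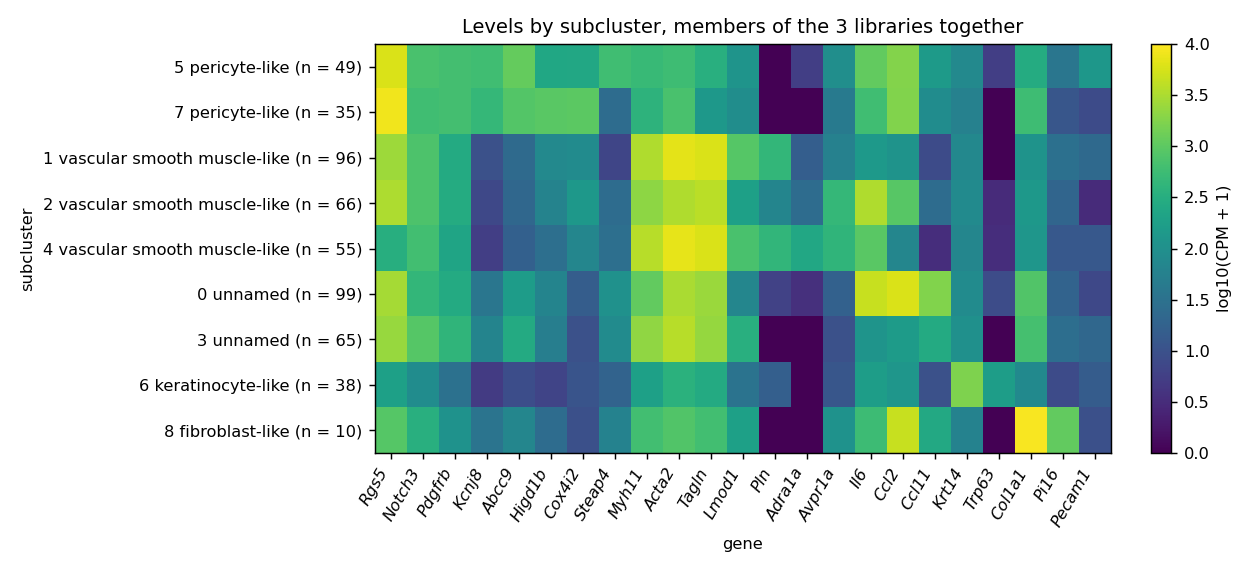
Levels of 23 marker and leading genes in the 9 subclusters of the mural cells, as log10(CPM + 1) of summed UMIs, with all libraries together. The pericyte-like subclusters 5 and 7 are highest for Rgs5 (5948 and 8348 CPM), subclusters 1 and 4 for Acta2 (6900 and 7224 CPM), and subcluster 6 carries the keratinocyte genes.

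For each gene, UMIs were summed over the mural cells of a library, so that a different mix of cells and a different level per cell cannot be told apart. A gene counted as different at 2-fold or more. Genes whose mean over the compared libraries fell short of 20 CPM, or whose sum fell short of 50 UMIs, were not measured here. Of 6862 genes, 174 (2.54%) were higher in UV than in CON and 87 (1.27%) lower. Of 6858 genes, 89 (1.3%) were higher in Rux than in UV and 153 (2.23%) lower. Rux against CON gave 218 of 6833 genes (3.19%) higher and 207 (3.03%) lower. Over the 465 cells these shares were 2.46% and 1.43% for UV against CON, 0.933% and 2.77% for Rux against UV, and 4.07% and 4.98% for Rux against CON. By any amount, 3504 genes were higher and 3358 lower in UV than in CON. In Rux against UV, 3469 were higher and 3389 lower. The counts of gene lists below are to be read beside these values over all genes. The median gene differed by 0.01 on the log2 scale in UV against CON and by 0.00 in Rux against UV. Both of these comparisons use the UV library, so a low value in UV makes UV/CON low and Rux/UV high at once.

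Pericyte genes stood higher in UV. Of 18 measured genes of the pericyte list, 14 were higher in UV than in CON, 4 of them by 2-fold or more, and none was 2-fold lower, with a median log2 ratio of 0.40 (0.40 over the 465 cells). Endothelial markers were higher in UV too. Both that were measured were 2-fold or more higher (median 1.50, and 1.18 over the 465 cells), and their part in the pericyte values was not tested. Abcc9 was at 77.7 CPM in CON, 186 in UV and 175 in Rux. Both irradiated libraries were thus higher, with a UV/CON log2 of 1.26 (0.96 to 1.57) and a Rux/UV log2 of -0.09. Cox4i2, a hypoxia-adapted subunit of cytochrome oxidase, was at 41.0, 113 and 144 CPM, a UV/CON log2 of 1.45 (1.05 to 1.88). Higd1b was at 39.2, 105 and 141 CPM, a UV/CON log2 of 1.42 (1.01 to 1.86). It had its highest level in Rux, and 1 cell gave 20.4% of its UV UMIs.

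Postn (periostin), a matrix protein on the pericyte list, was at 80.8, 245 and 269 CPM, also high in both irradiated libraries. Its UV/CON log2 was 1.59, or 1.41 over the 465 cells, and 1 cell gave 37.5% of its UMIs in CON. Other genes of the list were lowest in Rux. Steap4 was at 66.9, 77.7 and 34.9 CPM, with a Rux/UV log2 of -1.15 (-1.63 to -0.70). Art3, a surface ADP-ribosyltransferase relative, was at 46.1, 80.1 and 33.0 CPM, a Rux/UV log2 of -1.27 (-1.76 to -0.82). Zic1, a transcription factor, was also lowest in Rux, at 25.9, 34.8 and 12.3 CPM. In Rux against UV, 3 of 18 pericyte genes were 2-fold lower and none higher, and the median was 0.01 (-0.05 over the 465 cells). Rgs5, a rule gene and so a description only, was at 1166, 2466 and 2486 CPM. It was found in 68.4%, 89.3% and 87.1% of mural cells. Keratinocytes, which lack Rgs5, carried it in 1.38%, 4.35% and 1.72% of cells.

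In the contractile apparatus none of the 25 measured genes reached 2-fold in UV against CON or in Rux against UV, and the medians were -0.08 and -0.11. Over all genes, 2.54% were 2-fold higher and 1.27% lower in UV against CON, and 1.3% and 2.23% in Rux against UV. None of 25 is near these shares. With each cell weighted equally the medians became -0.25 and 0.08. Under the stricter quality filter 22 of 25 genes were lower in UV than in CON, 4 of them by 2-fold or more, and the median was -0.44. Within the subclusters the UV/CON medians were -0.44 in pericyte-like cells (13 of 17 lower), -0.05 in smooth muscle-like cells (16 of 25 lower), -0.05 in subcluster 0 (11 of 21 lower) and 0.56 in subcluster 3 (19 of 21 higher). Acta2 was at 3072 CPM in CON, 2932 in UV and 2222 in Rux, a Rux/UV log2 of -0.40 (-0.46 to -0.34). Over the 465 cells the Acta2 ratios were -0.22 for UV/CON and -0.29 for Rux/UV. Tagln was at 2891, 2256 and 1888 CPM and Myl6, a myosin light chain, at 2213, 1947 and 1756 CPM, both highest in CON and lowest in Rux. Myh11, a rule gene, stood at 1443, 1427 and 1304 CPM.

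Receptors and channels of vascular tone were read as a further list. Of 28 measured in UV against CON, 18 were higher, 3 of them by 2-fold or more, and none was 2-fold lower (median 0.32). Of 26 in Rux against UV, 21 were lower, 1 of them by 2-fold or more, and none was 2-fold higher (median -0.21). Over all genes, 2.54% were 2-fold higher in UV than in CON and 2.23% 2-fold lower in Rux than in UV. Under the stricter quality filter the list medians were 0.18 and -0.25. Trpc6, a cation channel opened by receptor signals, was at 74.5, 160 and 152 CPM, a UV/CON log2 of 1.10 (0.80 to 1.42). Avpr1a, the vasopressin receptor of vascular smooth muscle, was at 166, 96.1 and 40.7 CPM. It was lower at each step, with a UV/CON log2 of -0.79 (-1.06 to -0.52) and a Rux/UV log2 of -1.23 (-1.67 to -0.82). S1pr3, a sphingosine phosphate receptor counted with the vessel recruitment genes, had the same order at 465, 277 and 146 CPM. Prkg1, the kinase that relays nitric oxide and cyclic GMP, was at 938, 1046 and 683 CPM, a Rux/UV log2 of -0.61 (-0.72 to -0.51). Hes1, a direct Notch target, was at 578, 293 and 249 CPM, a UV/CON log2 of -0.98 (-1.13 to -0.83), whereas the receptor Notch3 was at 428, 452 and 474 CPM. The UV/CON log2 of Hes1 was below 0 in other cell types too. It was -0.80 in endothelial cells, -1.44 in fibroblasts, -1.02 in keratinocytes and -1.24 in leukocytes.

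**Figure D3:**
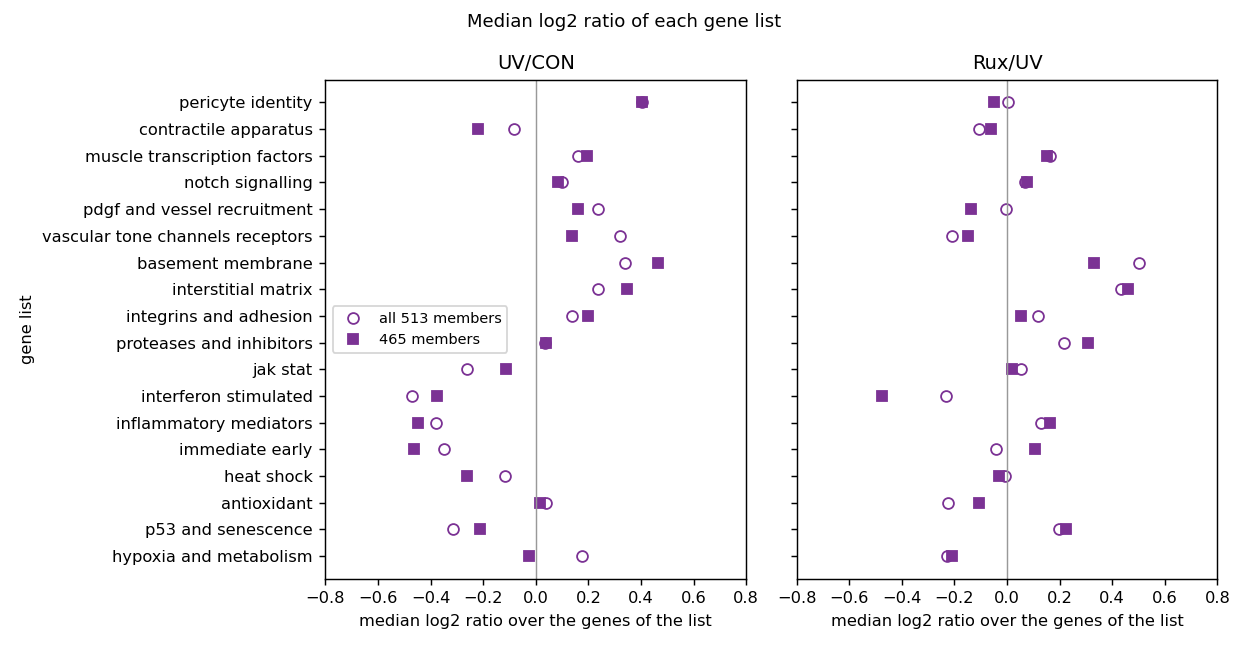
Median log2 ratio of each gene list in UV against CON and in Rux against UV, for all 513 mural cells (open circles) and the 465 without keratinocyte-like and fibroblast-like subclusters (squares). Interferon-stimulated genes lie below 0 in both comparisons (-0.47 and -0.23 over 513 cells), and basement membrane genes lie above 0 in both (0.34 and 0.50).

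Ruxolitinib acts on the JAK-STAT pathway, whose genes were read in the order receptor, kinase, factor and target. Of 33 JAK-STAT genes measured in UV against CON, 26 were lower and none reached 2-fold (median -0.26). Of 29 in Rux against UV, 18 were higher and 11 lower, and none reached 2-fold (median 0.05). Over all genes, 1.27% were 2-fold lower in UV than in CON and 2.23% in Rux than in UV, so none is near these shares. Once cells with high doublet scores were removed, 3 of 30 JAK-STAT genes were 2-fold lower in Rux than in UV (median 0.02). In Rux against CON, 6 of 33 were 2-fold lower and none higher (median -0.38). The genes named here were lowest in Rux, unlike most of the list. Osmr, a receptor chain for oncostatin M, was at 398, 409 and 265 CPM. Jak1, a kinase that ruxolitinib blocks, was at 384, 401 and 282 CPM. Both were chosen after their values were seen. Stat3, the factor downstream of interleukin 6 receptors, was at 551, 455 and 325 CPM, a Rux/UV log2 of -0.49 (-0.35 over the 465 cells). Socs3, the feedback inhibitor that STAT3 switches on, was at 583 CPM in CON, 390 in UV and 248 in Rux. Its UV/CON log2 was -0.58 (-0.72 to -0.44) and its Rux/UV log2 -0.65 (-0.83 to -0.48). Irf1, an interferon regulatory factor, followed the same order at 672, 387 and 253 CPM. Its log2 ratios were -0.80 (-0.93 to -0.66) and -0.61 (-0.79 to -0.44). Stat2, part of the factor that type I interferon activates, was also chosen after its values were seen, at 41.0, 30.4 and 5.17 CPM, the last from 8 UMIs. Its mean over UV and Rux fell short of 20 CPM, so it was not among the 29 genes.

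Interferon-stimulated genes stood lower at each step, from CON to UV and from UV to Rux. In UV against CON, 15 of 18 measured genes were lower, 4 of them by 2-fold or more, and none was 2-fold higher, with a median of -0.47 (-0.37 over the 465 cells). In Rux against UV, 11 of 15 were lower, again 4 by 2-fold or more and none higher, with a median of -0.23 (-0.48 over the 465 cells). Once cells with high doublet scores were removed, 13 of 15 were lower, 2 by 2-fold or more. The 2 medians were -0.37 and -0.36 in pericyte-like cells, -0.36 and -0.29 in smooth muscle-like cells and -0.54 and -0.21 in subcluster 0. In subcluster 3 they were near 0, at -0.01 (4 of 8 lower) and -0.05 (5 of 8 lower). Isg15, a ubiquitin-like protein, was at 213 CPM in CON, 103 in UV and 49.1 in Rux. The intervals did not overlap, and the log2 ratios were -1.04 (-1.30 to -0.79) and -1.07 (-1.47 to -0.69). Iigp1, an immunity GTPase, was at 228, 152 and 21.3 CPM. Its UV/CON log2 was -0.59 (-0.81 to -0.36), and the step from UV to Rux was 7.02-fold, a log2 of -2.81 (-3.40 to -2.31). Gbp2, a guanylate-binding protein, was at 120, 60.2 and 27.2 CPM. Irgm1, a further immunity GTPase chosen after its values were seen, was at 56.8, 31.9 and 3.88 CPM, the last from 6 UMIs. These genes shared one order, highest in CON and lowest in Rux. Ifitm3, a membrane protein that restricts viral entry, had it too, at 1381, 996 and 848 CPM. B2m, a subunit of MHC class I, had the opposite order, at 592, 668 and 792 CPM. Cxcl10, an interferon-induced chemokine, was at 253, 100 and 46.5 CPM, with 33.3% of the Rux UMIs from 1 cell.

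The promoters of Irf1 and Socs3 are printed because both are targets of STAT factors and both were lower at each step. Sequences are from RefSeq on GRCm38.p6, the assembly known as mm10, read 5′ to 3′ on the strand of the gene. The letters TTCNNNGAA, the palindromic core to which STAT dimers bind, were searched in the 250 bases before the first listed start of each gene. The letters read the same on both strands, and capitals mark the match. Irf1 is shown at chr11:53769894-53769962 on the plus strand, with the match 90 to 82 bases before its start. Socs3 is shown at chr11:117969482-117969550 on the minus strand, with the match 154 to 146 bases before its start.
Irf1: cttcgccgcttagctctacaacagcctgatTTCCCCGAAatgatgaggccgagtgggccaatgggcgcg
Socs3: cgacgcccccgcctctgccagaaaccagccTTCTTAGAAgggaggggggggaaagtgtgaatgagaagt

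These letters stood in 1940 of 27025 promoters of all genes, which is 7.18%. Among the lists they stood in 3 of 31 JAK-STAT genes with a promoter in the table (Socs3, Ifnar2 and Irf1), in 5 of 26 interferon-stimulated genes (Ifit2, Bst2, Gbp7, Psmb8 and Igtp), in 1 of 18 pericyte genes (Steap4) and in none of 22 contractile genes. The Il6 window did not hold them. A match is a description of letters and not a bound site.

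Inflammatory mediators split by gene. In UV against CON, 19 of 25 measured genes were lower, 2 of them by 2-fold or more and 1 higher by as much (median -0.38). In Rux against UV, 15 of 24 were higher, 1 by 2-fold or more and 2 lower by as much. That median was 0.13, and it became -0.18 once cells with high doublet scores were removed, with none 2-fold higher and 5 2-fold lower. Within the subclusters the Rux/UV median was 1.01 in pericyte-like cells (13 of 17 higher) and 0.11 in smooth muscle-like cells (10 of 19). It was 0.14 in subcluster 0 (14 of 24) and 0.45 in subcluster 3 (14 of 17). Il6, which encodes the interleukin that signals through JAK1 and STAT3, was at 1659 CPM in CON (1596 to 1723), 1408 in UV (1356 to 1461) and 731 in Rux (689 to 775). Rux was 1.93-fold below UV, a log2 of -0.94 (-1.05 to -0.85), and UV/CON was -0.24. Over the 465 cells the Il6 levels were 2616, 2016 and 1129 CPM, with the same order. Il6 was detected in 69.5%, 64.2% and 50.8% of mural cells. It was also found in 23.7%, 32.7% and 20.3% of keratinocytes and in 28.6%, 29.98% and 20.9% of leukocytes, the latter at median depths of 6119, 6728 and 6446 UMIs. Cebpd, a transcription factor induced by interleukin 6 signals, was at 445, 350 and 149 CPM. It had the same order as Il6, with a Rux/UV log2 of -1.23 (-1.46 to -1.02).

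Of the chemokines, Cxcl10 had the order of Il6, whereas Ccl2, Ccl11 and Cxcl1 were not lowest in Rux. Ccl2, which attracts monocytes, was at 1568 CPM in CON, 821 in UV and 1788 in Rux. It was lowest in UV, with a UV/CON log2 of -0.93 (-1.02 to -0.84) and a Rux/UV log2 of 1.12 (1.03 to 1.21). Once cells with high doublet scores were removed, no gene of the list, Ccl2 included, was 2-fold higher in Rux than in UV. Ccl11, which attracts eosinophils, was at 503, 212 and 230 CPM, high in CON alone. Subcluster 0 held 772 of its 797 UMIs in CON, 344 of 426 in UV and 245 of 355 in Rux. Cxcl1, a neutrophil chemokine and the most abundant gene of the list, was at 4539, 3886 and 4114 CPM. Tnfaip3, a feedback inhibitor of NF-kappaB, was at 259, 165 and 325 CPM, with the same order as Ccl2 and a Rux/UV log2 of 0.98 (0.78 to 1.19). The complement gene C3 was at 11.4, 57.2 and 100 CPM, with 33.9% of the UV UMIs from 1 cell.

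**Figure D4:**
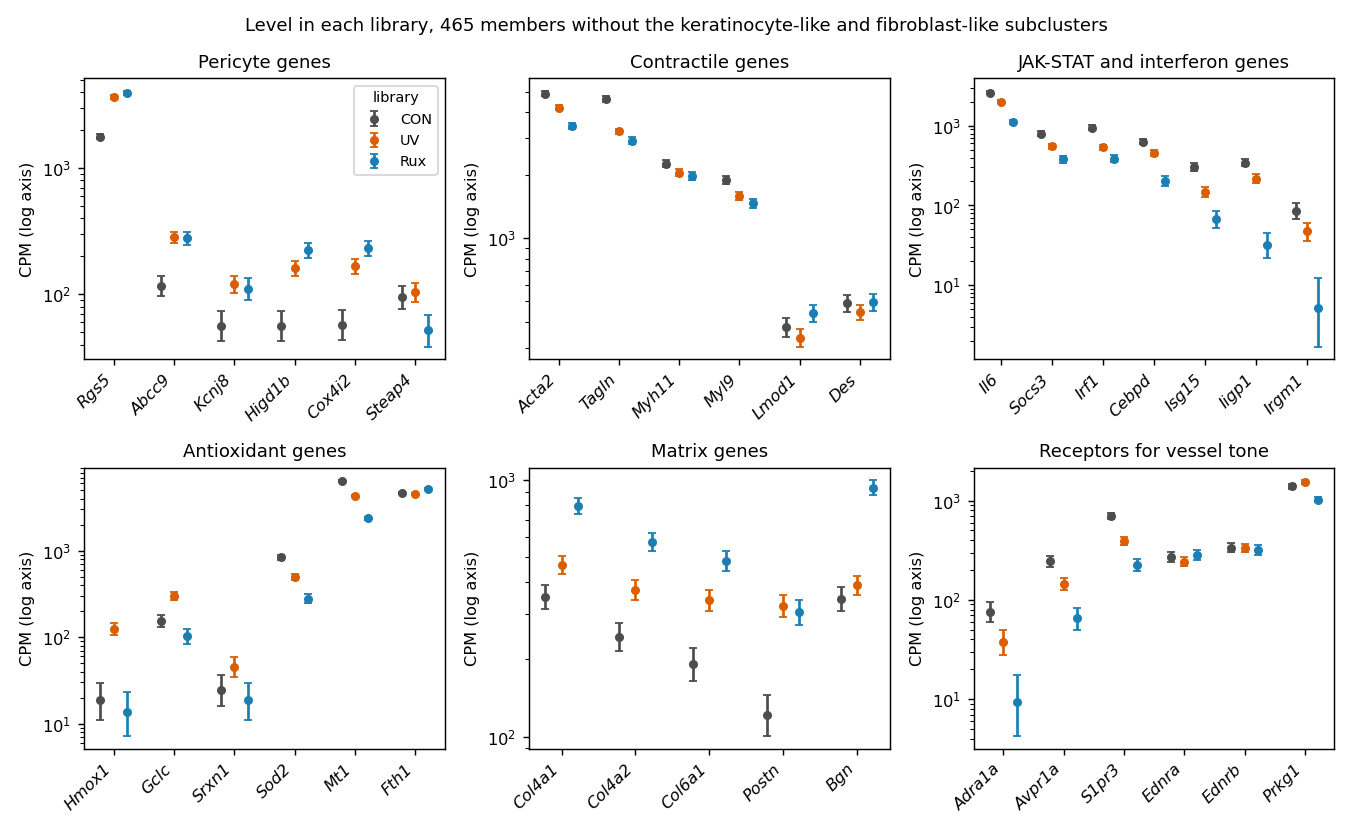
Levels of 6 sets of genes in the CON, UV and Rux libraries over 465 mural cells, as CPM of summed UMIs on a logarithmic axis with exact 95% counting intervals. Il6 (2616, 2016 and 1129 CPM) and Iigp1 (346, 218 and 32.2 CPM) are lowest in Rux, whereas Bgn (344, 390 and 936 CPM) is highest there.

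Immediate early genes were lower in both irradiated libraries. In UV against CON, 22 of 28 were lower, 2 of them by 2-fold or more (median -0.35, and -0.46 over the 465 cells). In Rux against UV the median was -0.04, with 1 gene 2-fold lower, and over the 465 cells it was 0.11. Egr1, a growth signal factor, was at 2829, 1520 and 1414 CPM. Nr4a2, an orphan nuclear receptor, was at 339, 162 and 113 CPM, a UV/CON log2 of -1.07 (-1.27 to -0.87). Fos was at 2826, 1638 and 2077 CPM. These genes also respond to tissue dissociation, and the part of dissociation in these values was not tested.

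Antioxidant genes as a list were centred near 0 in UV against CON (median 0.04, 3 of 21 genes 2-fold higher and none lower). In Rux against UV, 3 of 21 were 2-fold lower (median -0.22), or 2 of 21 under the stricter quality filter (median -0.04). Hmox1 (haem oxygenase 1), a target of the oxidant-sensing factor NRF2, was at 12.6 CPM in CON, 88.1 in UV and 15.5 in Rux. UV stood alone, 6.83-fold above CON and 5.58-fold above Rux, from 20, 177 and 24 UMIs. The log2 ratios were 2.77 (2.13 to 3.55) and -2.48 (-3.19 to -1.89), and 2.71 and -3.15 over the 465 cells. Gclc, which makes the first step of glutathione synthesis, was at 114, 216 and 80.8 CPM. It peaked in UV too, with log2 ratios of 0.92 (0.67 to 1.18) and -1.42 (-1.72 to -1.13). Srxn1, which repairs peroxiredoxins, was at 17.7, 40.3 and 19.4 CPM. The metallothionein Mt1, which binds zinc and is also induced by glucocorticoids and cytokines, was at 5217, 3577 and 2478 CPM and so highest in CON. Fth1, the ferritin heavy chain, was at 3461, 3322 and 3816 CPM.

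Basement membrane genes stood higher in Rux. Of 15 basement membrane genes, 14 were higher in Rux than in UV, 2 by 2-fold or more (median 0.50, and 0.33 over the 465 cells), and 12 were higher in UV than in CON (median 0.34), or 9 of 15 under the stricter quality filter (median 0.13). Col4a1, a chain of the main basement membrane collagen, was at 268, 322 and 517 CPM. Its partner Col4a2 was at 174, 255 and 381 CPM. Both were lowest in CON and highest in Rux, and the Rux/UV log2 of Col4a1 was 0.69 (0.53 to 0.84). Sparc, a collagen chaperone, was at 1013, 1174 and 1501 CPM. Col4a5, another type IV chain, dipped in UV at 51.8, 27.9 and 71.1 CPM. Lamb1, 2-fold or more higher in Rux than in UV over all mural cells, was lower over the 465. All 6 fibroblast markers measured in the mural cells were higher in Rux than in UV too (median 0.62). In fibroblasts themselves the Rux/UV log2 was 0.82 for Col4a1 and 0.67 for Col4a2. The part of fibroblast RNA in the basement membrane values was not tested.

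Of 25 interstitial matrix genes, 22 were higher in Rux than in UV, 4 by 2-fold or more (median 0.43), and 19 were higher in UV than in CON, 2 by 2-fold or more and 2 lower by as much (median 0.24). In UV against CON the stricter quality filter left 13 of 24 higher (median 0.13), and medians within the subclusters were 0.95 in pericyte-like cells (16 of 18 higher), 0.40 in smooth muscle-like cells (16 of 20), 1.21 in subcluster 3 (14 of 18) and -0.49 in subcluster 0 (7 of 21). The Rux/UV difference was not seen once cells with high doublet scores were removed, with 12 of 25 higher, 13 lower and a median of -0.003. Fibroblast markers, most of them on this list, moved with the Rux/UV values. All 6 measured were higher in Rux than in UV (median 0.62), and 4 of 6 once high doublet scores were removed (median 0.32). Their part in the matrix values was not tested. Bgn (biglycan), a small proteoglycan, was at 251, 279 and 611 CPM. Rux was 2.19-fold above UV, a log2 of 1.13 (0.98 to 1.28), 1.26 over the 465 cells and 0.75 without high doublet scores, although 1 cell gave 17.8% of the Rux UMIs. Col5a3, a minor fibrillar chain, was at 36.0, 83.6 and 164 CPM, higher at each step. Ccn1, a matricellular protein, was at 119, 126 and 275 CPM. Several collagen values rested on single cells. Col1a1 was at 876, 257 and 389 CPM, with 67.7% of its CON UMIs from 1 cell. The UV/CON log2 of Col1a1 was -1.77 over all mural cells and -0.23 over the 465. Fn1 (fibronectin) had a Rux/UV log2 of 1.36, which was 0.13 over the 465 cells, with 47.0% of its Rux UMIs from 1 cell.

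Secreted proteases of the Adamts family differed from each other. Adamts4, which cleaves aggrecan and versican, was at 1099, 852 and 356 CPM. Rux was 2.40-fold below UV, a log2 of -1.26 (-1.40 to -1.12), and -1.18 over the 465 cells. Adamts9 was at 546, 604 and 293 CPM, and Adamts1 at 1238, 903 and 642 CPM. Their lowest values were in Rux as well, although Adamts1 did not reach 2-fold against UV and the Rux/UV log2 of Adamts9 was -1.04 over all mural cells and -0.85 over the 465. The other family members on the list had their highest values in Rux, Adamts2 at 99.1, 136 and 161 CPM and Adamts5 at 54.9, 71.2 and 80.2 CPM, although the Rux/UV log2 of Adamts5 was 0.17 over all mural cells and -0.33 over the 465. Timp3, the tissue inhibitor of these proteases, was at 1101, 1119 and 1399 CPM. Of 18 genes of proteases and inhibitors, 2 were 2-fold higher and 3 were 2-fold lower in Rux against UV.

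A summed value depends on which cells it holds, so the same genes were read within the pericyte-like and the smooth muscle-like subclusters. Most pericyte-like cells of CON (15 of 19) and UV (24 of 38) were in subcluster 5, and most of Rux (17 of 27) in subcluster 7. The smooth muscle-like cells of CON were spread over subclusters 4 (35 of 91), 2 (31) and 1 (25), those of UV over subclusters 1 (37 of 77), 2 (25) and 4 (15), and 34 of the 49 of Rux were in subcluster 1. Il6 was at 1172, 949 and 529 CPM in pericyte-like cells and at 1553, 1452 and 798 CPM in smooth muscle-like cells. Its Rux/UV log2 was -0.84 and -0.86, close to the value over all mural cells. With all libraries together, Il6 was at 145, 3337 and 930 CPM in the smooth muscle-like subclusters 1, 2 and 4. It was at 1094 and 601 CPM in the pericyte-like subclusters 5 and 7. The mix of subclusters differed between libraries, and its part in these ratios was not tested. In subcluster 0 Il6 was at 6705, 4536 and 2825 CPM. Adamts4 was lowest in Rux in each of these, at 1094, 873 and 435 CPM in pericyte-like cells, 1250, 1306 and 530 CPM in smooth muscle-like cells and 3439, 1774 and 878 CPM in subcluster 0. Iigp1 was at 480, 470 and 49.4 CPM in pericyte-like cells and at 74.8, 45.8 and 18.6 CPM in smooth muscle-like cells. The Rux/UV log2 of Iigp1 was -3.19 in the first and -1.24 in the second.

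The pericyte list had a UV/CON median of 0.75 within the pericyte-like cells, with 13 of 15 measured genes higher, and of 0.02 within the smooth muscle-like cells, with 8 of 16 higher. In subclusters 0 and 3 the medians were 0.40 and 0.27, with 13 of 15 and 7 of 10 higher. The list shares genes with the markers that named the pericyte-like subclusters. Other lists moved in the pericyte-like cells too. In UV against CON, 12 of 14 heat shock genes and 21 of 25 immediate early genes were lower there (medians -0.98 and -0.80). Subcluster 5 also held the endothelial gene Pecam1, at 130 CPM and in 28.6% of its cells. The part of handling and of endothelial RNA in the pericyte values was not tested. In pericyte-like cells Cox4i2 was at 234, 650 and 855 CPM and Abcc9 at 603, 1154 and 969 CPM. Postn was at 78.2, 655 and 539 CPM and Trpc6 at 100, 570 and 677 CPM in these cells. In smooth muscle-like cells Trpc6 was at 146, 232 and 88.4 CPM, lowest in Rux. Rgs5, as a rule gene a description only, was at 6029, 8388 and 6688 CPM in pericyte-like cells and at 942, 2297 and 3644 CPM in smooth muscle-like cells. Some directions differed by cell form, and these differences were not tested. Gclc had a Rux/UV log2 of 0.09 in pericyte-like cells, -1.70 in smooth muscle-like cells and -3.99 in subcluster 0. Fabp4, a fatty acid carrier abundant in capillary endothelium, had a Rux/UV log2 of -0.43 in pericyte-like and 1.61 in smooth muscle-like cells. Ccl2 was at 1865, 608 and 2926 CPM in pericyte-like cells and at 179, 331 and 572 CPM in smooth muscle-like cells. In subcluster 0, which held 2183 of the 2484 Ccl2 UMIs of CON, it was at 9611, 3179 and 6284 CPM. The low UV value was seen in pericyte-like cells and subcluster 0 and not in smooth muscle-like cells. The smallest of these sums, the pericyte-like cells of CON, held 89565 UMIs.

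Blood endothelial cells, fibroblasts, keratinocytes and leukocytes of the same libraries were chosen by their own markers and compared with the mural cells. Among these cell types the mural cells had the highest Il6 level in CON and UV, at 1659 and 1408 CPM, against 961 and 813 CPM in endothelial cells and 612 and 800 CPM in fibroblasts. In Rux the mural level was 731 CPM, and 1129 CPM over the 465 cells, against 707 CPM in endothelial cells. The Rux/UV log2 of Il6 was -0.94 in mural cells, -0.20 in endothelial cells and -1.06 in fibroblasts. The UV/CON log2 of Il6 was -0.24 in mural and in endothelial cells and 0.39 in fibroblasts. Cebpd had a Rux/UV log2 of -1.23 in mural cells, -0.27 in endothelial cells and -0.89 in fibroblasts. The intervals of the mural and endothelial values did not overlap (-1.46 to -1.02 and -0.39 to -0.15).

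Several other differences were shared across cell types. Iigp1 had a Rux/UV log2 of -2.81 in mural cells, -2.90 in endothelial cells, -1.06 in fibroblasts and -2.08 in keratinocytes. Endothelial cells held Iigp1 at 790, 674 and 90.2 CPM. Avpr1a had a Rux/UV log2 of -1.23 in mural cells, -1.125 in endothelial cells, -1.06 in fibroblasts and -2.22 in keratinocytes. In leukocytes it was 0.13 (-2.30 to 3.71). The Rux/UV log2 of Adamts4 was -1.26 in mural cells, -0.45 in endothelial cells, -1.67 in fibroblasts, -1.16 in keratinocytes and -3.58 in leukocytes. Socs3 was lower in Rux than in UV in endothelial cells (-1.02), fibroblasts (-1.78) and keratinocytes (-1.41), and in leukocytes it was 0.40. Hmox1 was higher in UV than in CON in every compared type, with a log2 of 2.77 in mural cells, 2.18 in endothelial cells, 2.87 in fibroblasts, 1.51 in keratinocytes and 0.64 in leukocytes. Ccl2 differed. Its UV/CON log2 was -0.93 in mural cells and -0.18 in leukocytes, and 0.61, 0.96 and 0.31 in endothelial cells, fibroblasts and keratinocytes. Abcc9, Cox4i2 and Postn, higher in UV in mural cells, were also higher in UV in endothelial cells, by log2 values of 1.43, 2.02 and 1.57. Rgs5 in endothelial cells was at 582, 1110 and 1220 CPM, in 27.2%, 49.6% and 45.4% of cells. The part of free RNA and of attached mural cells in those endothelial values was not tested.

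**Figure D5:**
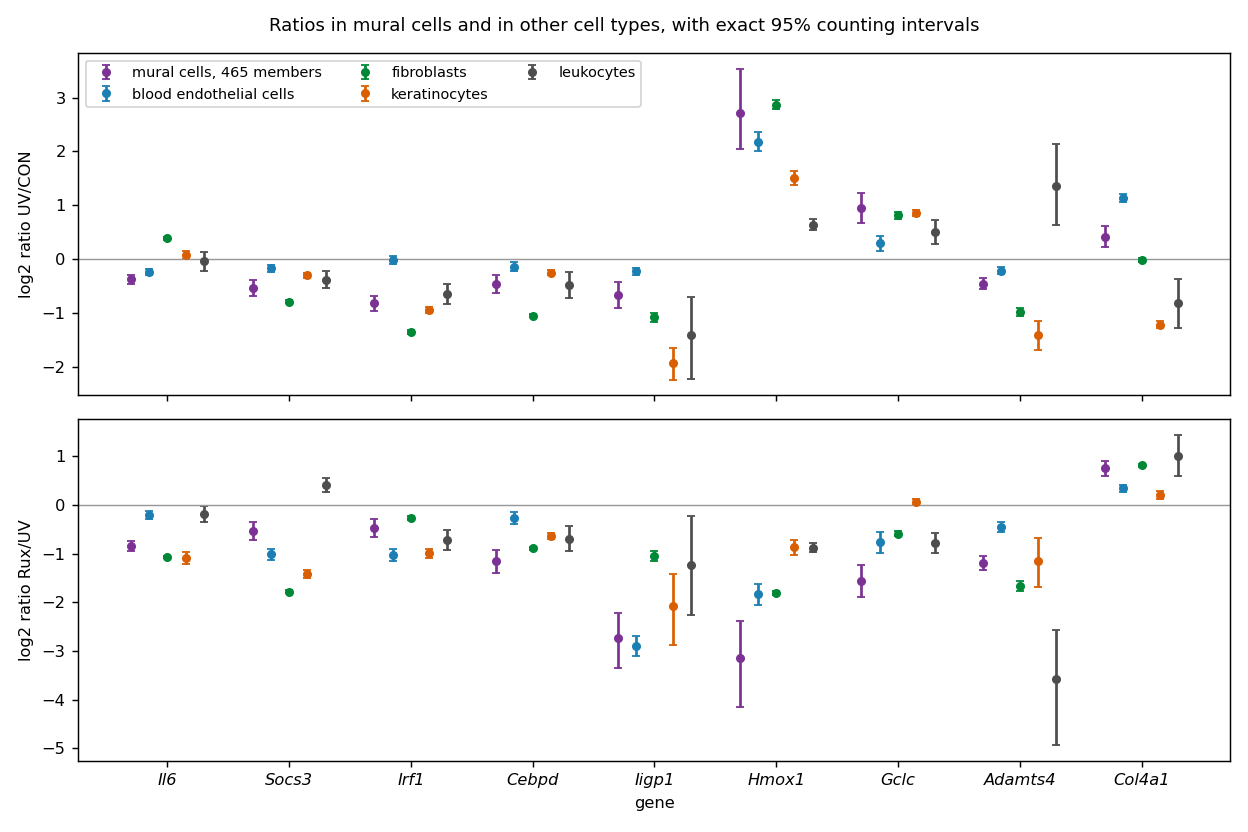
Log2 ratios UV/CON and Rux/UV of 9 genes in 465 mural cells, blood endothelial cells, fibroblasts, keratinocytes and leukocytes, from summed UMIs. Points are cell types in 1 library pair each and bars are exact 95% counting intervals. Hmox1 is above 0 for UV/CON in every cell type, and Iigp1 and Irf1 are below 0 for Rux/UV in every cell type.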

How the data were processed

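The 3 libraries were made with 10x Genomics 3′ chemistry, and the authors deposited filtered matrices of UMI counts per gene and cell barcode, aligned to mm10. The matrix headers name Cell Ranger 7.0.0, and the submitters' processing notes name 6.1.2 and Seurat 5.3.0. From the deposited counts, cells with 300 or more genes and no more than 10% mitochondrial UMIs were kept with scanpy 1.11.5 (Python 3.11.15). The libraries held 165337289, 133972374 and 131570327 UMIs in CON, UV and Rux. Mural cells and gene lists were chosen with earlier results of these data known. UMIs were summed over the mural cells of a library and divided by their total. Log2 ratios used a pseudocount of 0.5 UMI, with exact conditional binomial intervals. Shares of cells have exact Clopper-Pearson intervals. Subclusters came from Leiden clustering (resolution 0.5, 2000 variable genes, 20 principal components, 15 neighbours). The step that gives ratios and intervals was tested on simulated sums with counting error only. The other steps were not tested in this way. Doublets were scored with Scrublet at 0.8% per 1000 cells.

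Comparison cells carried at least 3 markers of their type (leukocytes Ptprc and 2 more) and none of the other types' exclusion genes. Named genes were the rule genes, Acta2 and the exclusion genes, in each list the 3 most abundant genes and those past 2-fold, and, for each comparison and for the gates, the 10 highest and 10 lowest ratios. For the comparisons these needed a mean of at least 100 CPM, at least 100 UMIs and no cell giving over 10% of the UMIs in the higher library. Gate genes had to point the same way in every library. Other genes were named after their values were seen. Promoters were matched by symbol to RefSeq. Some genes are not reported here.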

Additional observations from a re-analysis of the deposited data

How the results depend on the processing

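With 1 library per condition, no replicate could be left out. No paired analysis was possible because each group holds 1 sample. The cause of the changes below was not tested. With a minimum of 500 genes and no more than 5% mitochondrial UMIs per cell, mural cells were 1.34% of UV and 0.889% of Rux cells (log2 UV/CON 0.035) and 24.8 and 41.8 per 100 endothelial cells, and the contractile UV/CON median was -0.44 and the antioxidant Rux/UV median -0.042. With at least 4 rule genes the shares were 0.714%, 1.34% and 0.868% in CON, UV and Rux (log2 UV/CON 0.91, Rux/CON 0.28), 233 genes were lower in Rux than in UV, and the inflammatory UV/CON median was -0.68. Fgf2 UV/CON (0.075), Cdk1 Rux/UV (-0.087) and Jag2 Rux/UV (-1.98) then reversed. Thinned to 2000 UMIs, the shares were 1.03%, 1.59% and 0.970%. Without the 48 cells, 57 genes were higher in Rux than in UV, the interferon Rux/UV median was -0.48 and the immediate early one 0.11, and Col1a2 UV/CON (0.12) and Lamb1 Rux/UV (-0.33) reversed. With equal weight per cell, 132 genes were lower in UV and 394 in Rux than in CON, and the contractile medians were -0.25 (UV/CON) and 0.076 (Rux/UV). Equal weight without the 48 cells gave contractile medians of -0.29 and 0.090, an interferon Rux/UV median of -0.57, an immediate early one of 0.10, and reversed Col1a1 UV/CON (0.21), Col1a2 UV/CON (0.47) and Lamb1 Rux/UV (-0.38). Without cells carrying keratin or collagen UMIs above a limit, Col1a1 (0.68) and Col1a2 (0.85) reversed in UV/CON. A floor of 50 CPM and 100 UMIs left 63 genes higher and 29 lower in UV/CON, 28 and 66 in Rux/UV and 90 and 89 in Rux/CON. A floor of 10 UMIs alone gave 842 and 542, 519 and 837, and 797 and 797, with an interferon Rux/UV median of -0.43. Without cells of high doublet score the interferon Rux/UV median was -0.47, the inflammatory one -0.18 and the interstitial matrix one -0.003, which was 0.87 with at least 4 rule genes. Of the log2 ratios of single genes and of shares under all alternatives, 1670 stayed within their counting interval, 599 moved beyond it and 10 reversed, which here means that a ratio of 2-fold or more changed sign. Ratios under 2-fold changed sign 147 times, for example Dusp1 UV/CON, from -0.26 to 0.13 without the 48 cells.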

Other observations

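Further genes were among those with the largest ratios in mural cells. S100a4, a calcium-binding protein of motile cells, was at 141, 375 and 704 CPM in CON, UV and Rux, a UV/CON log2 of 1.41 (1.20 to 1.64). Fabp4 was at 1115, 1575 and 2663 CPM, and endothelial cells held it at 7398, 13880 and 14390 CPM. Both were lowest in CON and highest in Rux. Gadd45g, a stress-induced growth arrest gene, ran the other way at 884, 613 and 266 CPM. Procr, the protein C receptor, was at 695, 752 and 385 CPM. Of p53 and senescence genes, 11 of 14 measured were lower in UV than in CON (median -0.31) and 13 of 16 were higher in Rux than in UV (median 0.20), none by 2-fold. Under the stricter quality filter 11 of 15 were lower in UV than in CON (median -0.16). With that filter 10 of 16 were higher in Rux than in UV (median 0.04). Cdkn1a, the cell cycle inhibitor p21, was at 805, 585 and 396 CPM, lowest in Rux.

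Gm47283, an annotated gene without a named product, was at 293, 821 and 193 CPM in mural cells, log2 ratios of 1.49 (1.34 to 1.64) and -2.09 (-2.27 to -1.91). It was high in UV in all other compared cell types as well. Its UV/CON log2 was 1.35 in endothelial cells, 1.60 in fibroblasts, 1.42 in keratinocytes and 1.10 in leukocytes, and its Rux/UV log2 was -1.75, -1.63, -2.12 and -1.01. Csmd1, a large membrane protein with complement-control domains, was at 324, 877 and 484 CPM in mural cells.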
